A study of Mus musculus with 27 samples.

Results

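Cells given the cardiac factors Gata4 and Mef2c (GM) were compared with cells given Mef2c and Tbx5 (MT), so that Gata4 was exchanged for Tbx5 while Mef2c stayed. The 6 libraries, 3 of each pair, were chosen by their labels from 27 samples, and the measurement was chromatin accessibility by ATAC-seq, in which a transposase cuts and tags open DNA. The cells were neonatal mouse cardiac fibroblasts of strain Cd-1, immortalised with large T antigen and carrying the alpha-MHC-GFP reporter, and they were harvested at day 2 after retroviral infection without sorting. Both pairs were cultured with sb431542 and xav939, inhibitors of TGF-beta and Wnt signalling. The same exchange without Mef2c was read from cells with Gata4 alone (G) and Tbx5 alone (T), also with both inhibitors. Mef2c alone (M), both other combinations (GT and GMT) and a control given dsRed retrovirus, which had no inhibitors, completed the 24 libraries and 8 groups that were fitted, with 3 libraries in each. All cells come from one immortalised line. The labels number 3 replicates per condition and do not say whether these were separate infections, so a p-value here is set against the variation among those libraries, which may be technical. Because the populations were unsorted, a larger share of cells with an open region and a wider opening in each cell cannot be told apart.

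Gata4 is a zinc-finger protein that binds GATA sites and can bind DNA that is wrapped on nucleosomes. Tbx5 is a T-box protein needed for heart chamber and conduction development, and Mef2c is a MADS-box protein that drives muscle genes. Together they are the original set of factors used to turn fibroblasts into cells that resemble cardiomyocytes, and each is known to bind enhancers that lie far from the genes they serve. Regions are named here by their mm9 coordinates and were not assigned to genes, exons or introns, since mm9 gene models were not used here.

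Total counts over the 30815 deposited regions ran from 407184 in GM replicate 2 to 1704896 in MT replicate 1, and from 241394 to 1544120 in the other 18 libraries. Spearman correlations across the 20494 regions that were tested ran from 0.78 to 0.911 between libraries of one pair and from 0.592 to 0.751 between libraries of different pairs. GM replicate 2, the shallowest of the 6, had a mean correlation of 0.815 with the control and 0.804 with the other GM libraries. MT replicate 3 had 0.751 with the control, against 0.603 and 0.629 for MT replicates 1 and 2, and 0.818 with the other MT libraries. The library labelled GT replicate 1 stands nearer to G than to the other GT libraries in the values below. It enters the comparison of GM with MT only through the estimate of the spread, and counts without it are given beside the main ones.

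Exchanging Gata4 for Tbx5 was accompanied by different accessibility at 3570 of the 20494 regions (17.4%, edgeR quasi-likelihood test, adjusted p below 0.05). More of these were higher in MT, 2452 (12.0% of the regions tested), than in GM, 1118 (5.46%). The regions higher in MT also differed by more, with a median log2 fold change (GM minus MT) of -2.12, against 1.82 for the regions higher in GM and 0.03 over all regions tested. A difference of over 8-fold was found for 344 regions higher in MT and 44 higher in GM, and one of between 4-fold and 8-fold for 1077 and 368. The 3 libraries of one pair lay wholly above those of the other at 2306 of the 2452 and 1014 of the 1118 regions, where 32.7% of all regions tested had no overlap. The number called fell to 2152 without GM replicate 1 (686 higher in GM and 1466 higher in MT), to 1956 without GM replicate 3 (563 and 1393), to 1894 without MT replicate 1 (386 and 1508) and to 2318 without MT replicate 2 (652 and 1666). Without the library labelled GT replicate 1 it was 4197, with 1368 higher in GM and 2829 higher in MT. Without GM replicate 2 it was 3493, with 1334 and 2159, and without MT replicate 3 it was 3554, with 1230 and 2324. In each of the 6 fits that left out 1 GM or MT library, 1026 of the 2452 regions (41.8%) and 250 of the 1118 (22.4%) were called in the same direction.

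**Figure D1:**
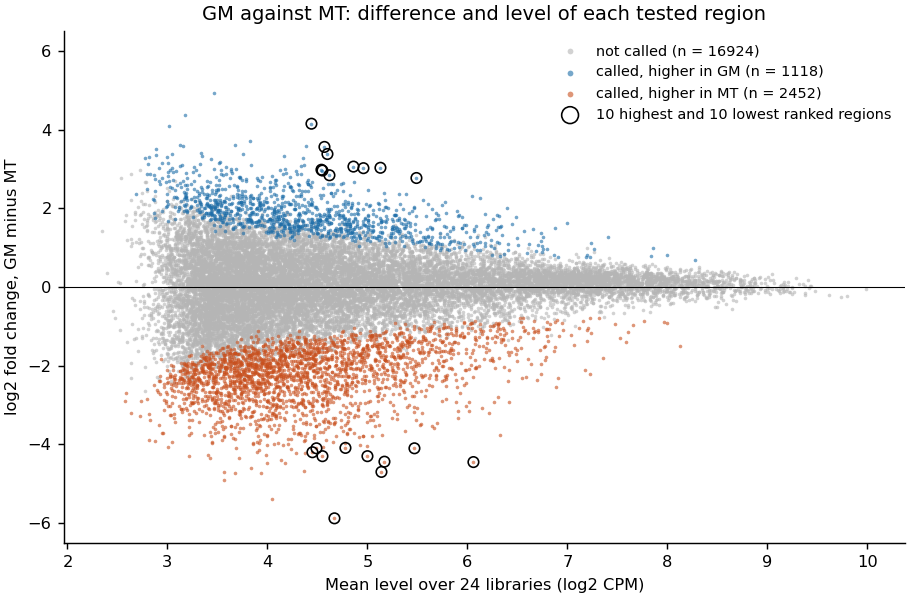
Log2 fold change (GM minus MT) of each tested region against its mean log2 CPM over the 24 libraries. The 1118 regions called higher in GM are blue, the 2452 called higher in MT are orange, and circles mark the 10 top-ranked of each direction. The differences narrow to the right, where the most accessible regions lie.

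The top-ranked region higher in MT was chr2:18752751-18752960, of 210 bp. Its levels in CPM (counts scaled to the TMM-adjusted library size) were 116, 130 and 127 CPM in MT replicates 1 to 3 and 1.97, 0 and 3.16 CPM in the GM replicates. T was as high as MT, at 158, 167 and 122 CPM, and G, M and the control all had means of 12.2 CPM or less. So the 6 libraries with Tbx5 in T and MT stood far above the 12 of GM, G, M and control, with no overlap. The log2 fold change was -5.88 ± 0.74 (SE, n = 3 per pair, adjusted p = 5.67e-06). With 5 counts in GM and 314 in MT, the ratio of the pooled levels was 61.9 in favour of MT, with an exact 95% interval of 26.3 to 192 that covers counting error only. A further ranked region, chr2:18753102-18753573, began 141 bp after it ended and went from 6.03 ± 1.36 CPM (SD, n = 3) in GM to 111 ± 15.8 CPM in MT (log2 fold change -4.20 ± 0.57, adjusted p = 1.07e-05).

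At the next-ranked region, chr12:9244394-9244756, MT had 181, 195 and 160 CPM and GM 5.92, 4.96 and 9.48 CPM (log2 fold change -4.70 ± 0.59, adjusted p = 5.67e-06). Here T had 196, 129 and 122 CPM and G 3.62, 18.2 and 7.06 CPM, again without overlap. The most accessible of the leading regions was chr17:73371686-73372265, with 367, 355 and 325 CPM in MT against 11.2, 17.4 and 22.1 CPM in GM (log2 fold change -4.45 ± 0.56, adjusted p = 5.67e-06). In T it stood at 528, 474 and 317 CPM, and in M, whose cells had Mef2c and no Tbx5, at 8.36, 16.6 and 11.1 CPM. The fourth, chr11:112791536-112792047, had 141, 165 and 163 CPM in MT and 5.26, 12.4 and 6.32 CPM in GM (log2 fold change -4.44 ± 0.54, adjusted p = 5.67e-06). By their means all 4 regions were thus far above the control in MT and T. The GM means lay below the control, but libraries of GM and control overlapped at chr12:9244394-9244756, chr17:73371686-73372265 and chr11:112791536-112792047. The ranking favoured low levels in GM, and the control had no inhibitors.

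The other ranked regions higher in MT were chr2:49253129-49253497, chr8:18915099-18915479, chr6:120124582-120125134, chr7:28440702-28441026 and chr12:118239836-118240403. Over the 10 ranked regions the log2 fold changes ran from -5.88 to -4.09 and no adjusted p exceeded 9.69e-05. Mean levels in MT were 67.8 to 349 CPM and in GM 1.71 to 16.9 CPM. M had 3.40 to 18.1 CPM and the control 5.10 to 19.6 CPM at these 10 regions, so the level with Mef2c alone did not approach that of MT at any of them. 

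The regions higher in GM had smaller differences by their median log2 fold change (1.82, against -2.12 for those higher in MT). The spread between libraries was not compared over the lists. The largest log2 fold change of all 1118 was 4.92, at a region that did not meet the conditions of the ranking. At the top-ranked, chr2:69654566-69654966, GM had 101, 27.3 and 90.0 CPM and MT 2.54, 8.42 and 2.35 CPM (log2 fold change 4.15 ± 0.70, adjusted p = 0.000126). G was likewise raised, at 74.3, 26.0 and 80.5 CPM, while T had 5.86, 1.79 and 11.4 CPM. The second libraries of GM and of G, both the shallowest of their groups, were the lowest here. That GM did not overlap MT was required by the ranking, and no G library overlapped T. At chr1:75452098-75452357, GM had 46.7, 27.3 and 104 CPM and MT 3.18, 6.74 and 7.06 CPM (log2 fold change 3.56 ± 0.66, adjusted p = 0.000346). G exceeded GM there in its mean, with 134, 36.4 and 160 CPM, and the libraries of the 2 groups overlapped.

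The third-ranked region higher in GM was chr17:66612117-66612438, with 90.7, 27.3 and 85.3 CPM in GM and 6.35, 8.42 and 4.71 CPM in MT (log2 fold change 3.38 ± 0.52, adjusted p = 4.83e-05). The fourth was chr5:107876951-107877176, with 67.1, 57.1 and 109 CPM in GM and 9.53, 8.42 and 9.42 CPM in MT (log2 fold change 3.06 ± 0.51, adjusted p = 0.000114). Gata4 alone gave the highest level of this last region, 217, 114 and 238 CPM, all above the GM libraries, and the control stood at 31.2, 22.1 and 17.0 CPM, above all M, T and MT libraries. Its G minus T difference, 5.24 ± 0.59 on the log2 scale, was larger than its GM minus MT difference, but the test of the gap between them did not pass (difference -2.17 ± 0.84, unadjusted p = 0.0143, adjusted p = 0.696).

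The remaining ranked regions higher in GM were chr3:105721047-105721252, chr7:147308205-147308549, chr7:141020197-141020605, chr18:36624709-36625199, chr14:76701826-76702196 and chr5:64456098-64456400. Over these 10 regions the log2 fold changes ran from 2.77 to 4.15 and the largest adjusted p was 0.0021. Their mean levels were 59.4 to 121 CPM in GM and 4.44 to 15.7 CPM in MT. Levels in the control, a parallel group of the same day without inhibitors, were mixed. The control had 6.40 CPM at chr17:66612117-66612438 and 83.7 CPM at chr5:64456098-64456400. At the latter, GM had 86.1, 67.0 and 144 CPM, close to the control's 80.2, 82.1 and 88.9 CPM, whereas the libraries of MT (7.06 to 20.2 CPM), M (8.28 to 28.8 CPM) and T (17.9 to 23.5 CPM) all lay below. This was also the region higher in GM with the smallest p-value among those that met the level and overlap conditions (adjusted p = 4.15e-05). At chr14:76701826-76702196 Mef2c alone was high too, with means of 46.8 CPM in M, 68.9 CPM in GM and 36.5 CPM in G, against 9.06 CPM in MT and 8.78 CPM in T.

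**Figure D2:**
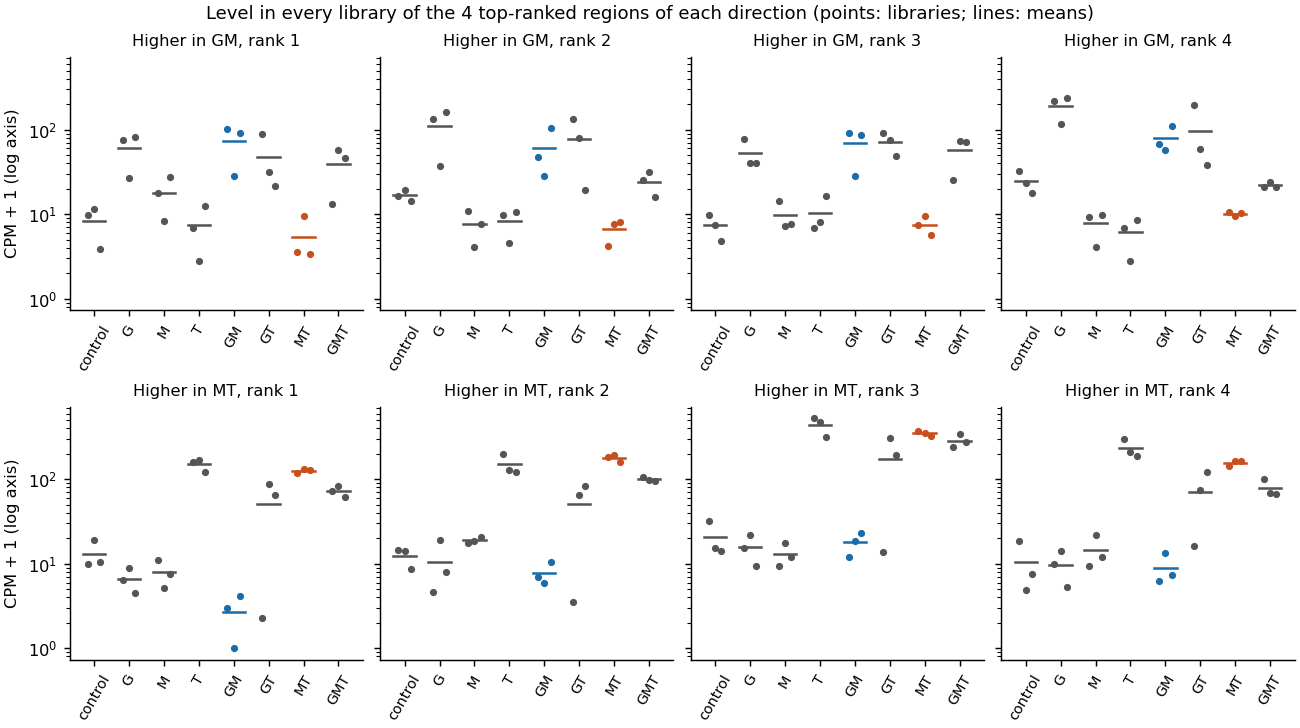
Level (CPM + 1, log axis) in every library of the 4 top-ranked regions higher in GM (upper row) and higher in MT (lower row), by group. Points are libraries and lines are group means. In the lower row MT and T stand above GM, G, M and control with no overlap, and in the upper row GM stands above MT. The ranking required that GM and MT do not overlap.

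At the 3 regions higher in MT with the smallest p-values, under the same level and overlap conditions, the M libraries also lay above the control libraries. At chr2:6911839-6912415, MT had 163, 187 and 139 CPM and GM 16.4, 12.4 and 17.4 CPM (log2 fold change -3.36 ± 0.36, adjusted p = 1.36e-06). M stood at 125, 120 and 122 CPM, and the control at 46.8, 32.6 and 19.9 CPM, with G at 6.34, 10.4 and 6.36 CPM. Every M library thus lay above the control and every GM and G library below it. At chr18:68390466-68390899, MT had 158, 160 and 87.1 CPM and GM 17.8, 7.45 and 12.6 CPM (log2 fold change -3.30 ± 0.39, adjusted p = 4.12e-06). M had 68.5, 56.9 and 82.1 CPM and T 23.5, 23.3 and 20.9 CPM, both above the control (11.1 to 15.6 CPM), while GM overlapped it. The third of these regions, chr16:24788800-24789458, had 222, 155 and 120 CPM in MT and 12.5, 9.93 and 6.32 CPM in GM (log2 fold change -4.03 ± 0.44, adjusted p = 1.36e-06). There T was high, at 170, 71.8 and 93.1 CPM, and M had 25.1, 18.6 and 22.2 CPM against 5.67 to 13.4 CPM in the control.

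Levels in groups that GM versus MT did not compare place both lists. Over the 2452 regions higher in MT the median of the group means was 46.5 CPM in T, 9.51 CPM in the control, 10.7 CPM in M and 8.39 CPM in G, beside 41.2 CPM in MT and 8.84 CPM in GM, the values that chose them. Per library, the median over these regions was 34.2 to 58.6 CPM in T and 5.65 to 11.4 CPM in the G, M and control libraries, with no overlap. Over the 1118 regions higher in GM it was 26.0 to 48.4 CPM in G, 12.4 to 15.5 CPM in M, 12.3 to 15.6 CPM in the control and 5.86 to 9.50 CPM in T. T thus lay below M and the control here, and G above both. All regions tested had medians between 18.9 and 21.4 CPM in the control, G, M and T.

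**Figure D3:**
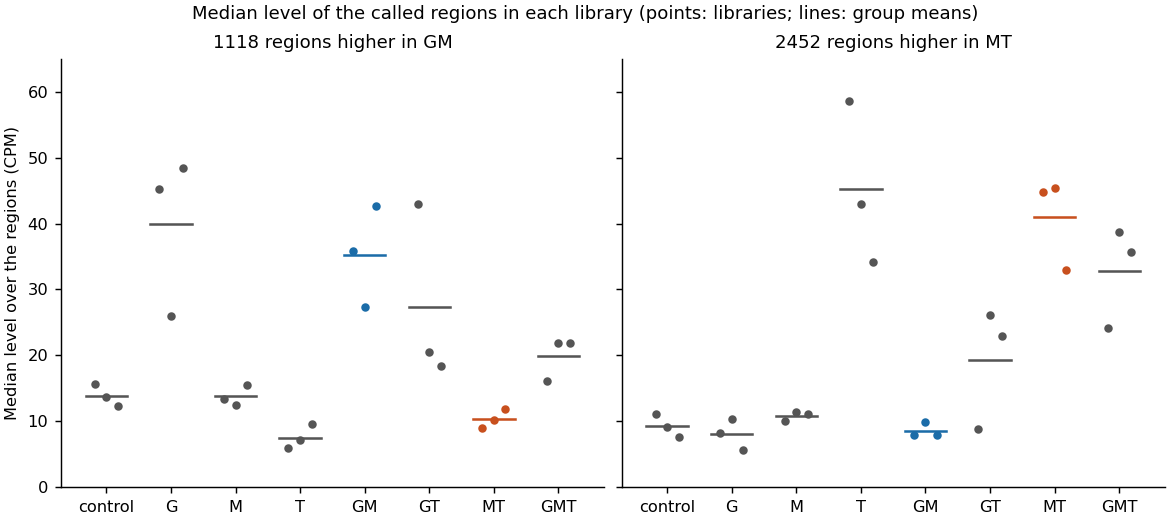
Median level (CPM, linear axis from 0) over the 1118 regions higher in GM and the 2452 regions higher in MT, in each library of the 8 groups. Points are libraries and lines are their group means. GM and MT chose the regions, and the other groups did not: T stands with MT on the right and G with GM on the left, and 1 GT library stands apart from the other GT libraries in both panels.

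Single factors were then set against the control in these regions, in libraries that GM versus MT did not compare but that share its estimate of the spread. Since the control had no inhibitors, the factor and the inhibitors cannot be told apart in these values. Of the regions higher in MT, 1614 of 2452 (65.8%) were called higher in T than in the control, where 14.5% of all regions were, and 194 (7.91%) were called lower in G, where 6.07% of all regions were. Of the regions higher in GM, 529 of 1118 (47.3%) were called higher in G, against 9.61% of all regions, and 275 (24.6%) were called lower in T, against 10.6%. Mef2c, present in both pairs, gave shares nearer to those of all regions: 240 (9.79%) of the regions higher in MT and 85 (7.60%) of those higher in GM were called higher in M, against 9.67%. The calls lower in M were 105 (4.28%) and 110 (9.84%), against 6.47%.

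The other way round, lists were taken from single factors against the control, which compare neither GM nor MT. Of the 2977 regions higher in T than in the control, 1614 (54.2%) were higher in MT and 1 in GM. Their median level was 32.4 CPM in MT and 9.54 CPM in GM. Of the regions higher in G than in the control, 529 of 1970 (26.9%) were higher in GM and 27 were higher in MT, with medians of 20.9 CPM in GM and 10.1 CPM in MT. Whether these shares differ beyond the spread of the libraries was not tested. Regions lower in T than in the control were higher in GM in 275 of 2176 cases (12.6%), and those lower in G were higher in MT in 194 of 1243 cases (15.6%). Of the 1982 regions higher in M than in the control, 85 (4.29%) were higher in GM and 240 (12.1%) in MT, close to the shares among all regions (5.46% and 12.0%). At these Mef2c regions the median level was 22.1 CPM in GM and 23.4 CPM in MT. M (37.8 CPM) and the control (7.46 CPM) chose these regions, so a median between them is no result about the pairs.

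The exchange of Gata4 for Tbx5 without Mef2c, G versus T, compares libraries that GM versus MT does not. Since all 24 libraries were fitted together, G versus T shares the filter, the scaling and the estimate of the spread with GM versus MT. It called 6839 regions (33.4%), of which 3415 were higher in G (16.7%) and 3424 higher in T (16.7%), and the G and T libraries did not overlap at 39.7% of regions. Of the regions higher in GM, 893 of 1118 (79.9%) were called higher in G than in T, and of those higher in MT, 1923 of 2452 (78.4%) were called higher in T. None was called in the opposite direction. The shared regions made up 26.1% of those higher in G and 56.2% of those higher in T. Over called and uncalled regions together, the sign was nearly always the same. G minus T was above 0 at 1097 of the 1118 regions and below 0 at 2402 of the 2452. The median G minus T difference on the log2 scale was 2.19 for the regions higher in GM and -2.25 for those higher in MT, against 0.00 over all regions tested. The number called in both comparisons in the same direction was 2816 with all libraries. It was 1788 without GM replicate 1, 1667 without GM replicate 3 and 1574 without MT replicate 1. With each comparison fitted on its own libraries alone, GM versus MT called 2956 regions and G versus T 4665. In those fits 2021 regions were called in both in the same direction.

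Among regions that changed in the same direction in both comparisons, the largest paired differences higher with Gata4 were at chr1:75452098-75452357, with log2 fold changes of 3.56 (GM minus MT) and 3.97 ± 0.65 (G minus T, adjusted p = 2.6e-05), and at chr2:69654566-69654966, with 4.15 and 3.28 ± 0.70 (adjusted p = 0.000553). Those higher with Tbx5 were led by chr2:18752751-18752960, with -5.88 and -4.85 ± 0.64 (adjusted p = 1.74e-06), and chr17:73371686-73372265, with -4.45 and -5.05 ± 0.57 (adjusted p = 3.07e-07). All 20 ranked regions of the comparison of pairs were called in G versus T, each in the direction it had there. G versus T called 33.4% of all regions tested. It called 79.9% of the regions higher in GM and 78.4% of those higher in MT in the same direction. The 20 were picked from these lists for large differences. Across the 20494 regions, which share libraries and depth and are not independent replicates, the 2 differences correlated with a Pearson r of 0.82 and a Spearman rho of 0.79.

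**Figure D4:**
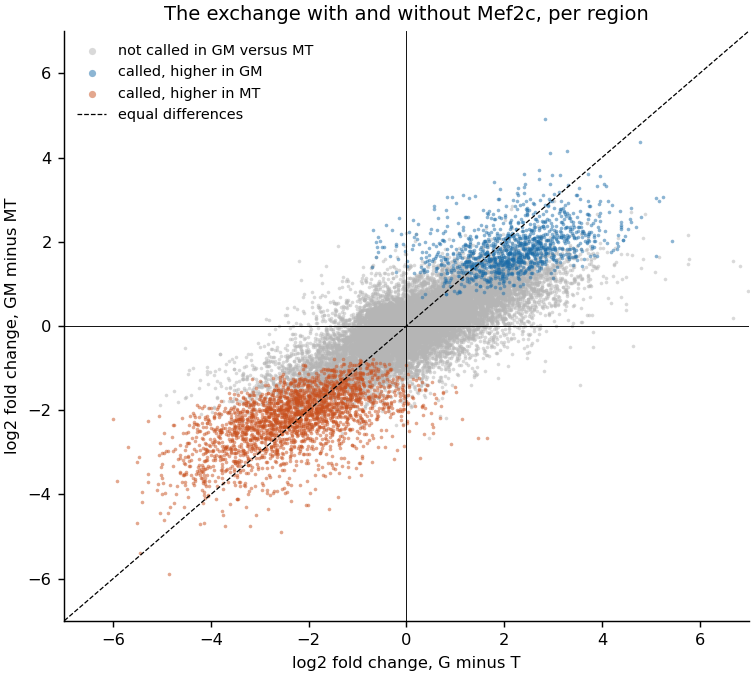
Log2 fold change of GM minus MT against that of G minus T for each of the 20494 regions tested. Blue regions were called higher in GM and orange regions higher in MT. The dashed line marks equal differences. Of the blue regions 1097 of 1118 have G minus T above 0, and of the orange regions 2402 of 2452 have it below 0.

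The gap between the 2 exchanges was tested directly. No region passed (0 of 20494, 0% called, smallest adjusted p = 0.678), with 1441 regions (7.03%) at an unadjusted p under 0.05 by edgeR and 0 called with 1264 unadjusted by DESeq2. That does not show equal differences, since the median SE of this contrast was 0.74 on the log2 scale, against 0.49 for GM minus MT. The 2522 regions called higher in G than in T but not called in GM versus MT had a median of 1.94 for G minus T and 0.82 for GM minus MT, and 2412 of them (95.6%) were on the GM side. For the 1501 regions called higher in T than in G but not called in GM versus MT, these medians were -1.75 and -0.87, with 1369 (91.2%) on the MT side. Both sets were chosen for passing in G versus T and not in GM versus MT. Their larger G minus T medians follow from that choice and are no result about Mef2c.

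Many regions had an interval that bounded their difference between the pairs. The intervals are per region, without adjustment, and their SE is less exact where the fold change is near 0. The 95% interval of the log2 fold change lay within -1 to 1, a difference of less than 2-fold, at 4103 regions (20.0%), none of them called. From coefficients without a prior count there were 4041. They had a median level of 102 CPM over the 2 pairs, against 18.2 CPM for all others. The most accessible was chr15:44259359-44259640, with 804, 1353 and 1028 CPM in GM and 1062, 1171 and 1055 CPM in MT (log2 fold change -0.05, interval -0.47 to 0.37), and overlapping libraries. At chr8:4166019-4166413 the interval was -0.58 to 0.11 and at chr15:3945592-3946236 it was -0.64 to 0.14. In this last region the GM libraries, at 740, 814 and 798 CPM, all lay below the MT libraries, at 942, 959 and 902 CPM, by a small amount that did not pass the test (adjusted p = 0.417). A further 12821 regions (62.6%) were neither called nor bounded in this way, so for most regions these libraries settle neither a difference nor its absence. Without GM replicate 2, GM replicate 3 and MT replicate 1, each in its own fit, the bounded regions numbered 2524, 2574 and 2523.

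Calls were spread unevenly over levels and widths. When regions were split by mean level into 4 classes of equal size, 2.71% of the highest class were higher in GM and 5.99% higher in MT, against 7.22% and 15.1% in the class below it and 5.45% and 11.0% in the lowest. Regions of 250 bp or less were higher in MT in 7.97% of cases (756 of 9488), and the share was 12.7% at 251 to 350 bp, 17.1% at 351 to 500 bp and 22.7% (307 of 1352) over 500 bp. For regions higher in GM the shares in these widths were 4.595%, 5.95%, 6.70% and 5.84%. The median width was 313.5 bp for regions higher in MT and 282 bp for those higher in GM, against 261 bp for all tested. Wider regions collect more counts, and the part of this in the shares was not tested. By chromosome the share higher in MT ran from 8.69% on chromosome 11 to 14.5% on chromosome 1, and that higher in GM from 4.03% on chromosome 8 to 7.29% on chromosome 9, so neither list was gathered on one chromosome.

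Some called regions lay in runs. When called regions of one direction within 50 kb of each other were joined, 88 runs of 3 or more held 312 (12.7%) of the regions higher in MT, and 9 runs held 29 (2.59%) of those higher in GM. The lists differ in length (2452 against 1118), a longer list has more neighbours to join, and the densities were not compared by a test. With a distance of 25 or 100 kb in place of 50 kb, 163 and 516 regions higher in MT lay in runs. The longest run lay at chr10:76829648-76961325, where 11 of the 13 tested regions in 131.7 kb were higher in MT. Their log2 fold changes ran from -3.74 to -1.59, with mean levels of 18.9 to 127 CPM in MT and 2.90 to 31.2 CPM in GM. At 10 of the 11 the libraries of the pairs did not overlap, and 10 were also called higher in T than in G. Over all regions tested these shares were 32.7% and 16.7%. Among the 2452 regions higher in MT, 2306 had no overlap and 78.4% were called higher in T, so neither count sets the run apart. Some of the gaps between the pairs in the run were narrow. At chr10:76930236-76930517 MT had 73.7, 65.7 and 11.8 CPM, and GM replicate 1 had 11.2 CPM. MT replicate 3 was not low at all members, with 122 CPM at chr10:76935067-76935380 against 144 and 97.7 CPM in MT replicates 1 and 2.

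The largest difference in this run was at chr10:76859811-76860011, from 2.90 ± 2.54 CPM (SD, n = 3) in GM to 46.5 ± 20.8 CPM in MT (log2 fold change -3.74 ± 0.58, adjusted p = 5.9e-05). The next were chr10:76904259-76904791, with -3.35 ± 0.53 (adjusted p = 6.44e-05), and chr10:76961056-76961325, with -3.26 ± 0.55 (adjusted p = 0.000126). The most accessible member, chr10:76946898-76947434, went from 31.2 ± 3.76 to 127 ± 35.4 CPM (log2 fold change -2.01 ± 0.40). The run was not uniform, since chr10:76880486-76880712, in its middle, had 92.4 CPM in GM and 64.5 CPM in MT (log2 fold change 0.48 ± 0.32, adjusted p = 0.339). Its outermost member, chr10:76829648-76829931, was the weakest (log2 fold change -1.59 ± 0.56, adjusted p = 0.0455). That call was lost with RLE size factors, total counts, loess offsets, DESeq2, no filter and a minimum count of 20 (adjusted p from 0.053 to 0.0876). It was also lost without any one of GM replicates 1 and 3 and MT replicates 1 to 3 (0.0647 to 0.35).

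**Figure D5:**
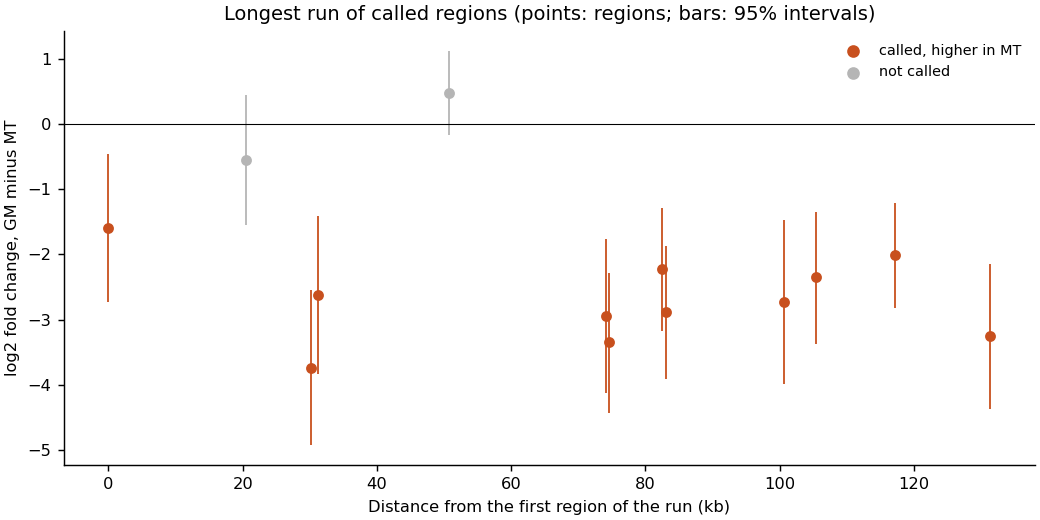
Log2 fold change (GM minus MT) of the 13 tested regions in the longest run, by distance in kb from its first region, with 95% intervals. The 11 called regions (orange) lie between -3.74 and -1.59, and the 2 that were not called (grey) have intervals that cross 0.

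Among regions higher in GM the longest runs had 4 members. The first in chromosome order lay on chromosome 15, where 4 of 8 tested regions in 47.1 kb were called, led by chr15:66629417-66629622 (50.6 CPM in GM and 9.03 CPM in MT, log2 fold change 2.44 ± 0.58, adjusted p = 0.00362) and chr15:66673907-66674337 (110 and 20.8 CPM, 2.43 ± 0.50, adjusted p = 0.000891). Between them, chr15:66649990-66650531 had 51.3 CPM in GM and 93.9 CPM in MT and was not called (log2 fold change -0.85 ± 0.36, adjusted p = 0.103). Of the other 2 members, chr15:66649152-66649354 (1.69 ± 0.47, adjusted p = 0.0111) lost its call without GM replicate 1 (0.0523) and without MT replicate 2 (0.0515). The remaining one, chr15:66627258-66627460 (1.51 ± 0.49, adjusted p = 0.0291), lost it without GM replicate 1 (0.196) and without each of GM replicate 3 and MT replicates 1 to 3 (0.0501 to 0.0933).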

How the data were processed

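ATAC-seq was done on unsorted cells, per the labels' protocols. The submitters' processing notes name Bowtie2, Picard, featureCounts and the build mm9, without versions. The deposited values are raw counts per region, which the authors did not normalise. The definition of the regions, and the choice of reads or fragments as the counted unit, are not given in the sources used here. Of 27 samples, 24 have a column, and 3 (dsRed with inhibitors) are not analysed here. 

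Regions were filtered with filterByExpr (minimum count 10, minimum total 15), which kept 20494 of 30815 (66.5%). In R 4.3.3 with edgeR 4.0.16, libraries were scaled by TMM and all 8 groups were fitted together with the quasi-likelihood test, with Benjamini-Hochberg adjustment over all regions within each comparison and a threshold of 0.05. An SE is the size of the log2 fold change divided by the square root of F, which is less exact where the fold change is near 0. Mean log2 CPM used a prior count of 2. The alternatives were RLE factors, total counts, loess offsets (span 0.3), DESeq2 1.42.0, no filter, a minimum count of 20, fits restricted to the groups being compared, a block for the replicate number, a fold of at least 1.5, a threshold of 0.01, and leaving out libraries.

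To be ranked, a called region needed GM and MT libraries that do not overlap and a mean log2 CPM no lower than the median of those tested, and the 10 highest and 10 lowest log2 fold changes were taken. To these were added the 3 smallest p-values per direction, the largest differences shared with G versus T, the 3 most accessible bounded regions and the longest run of each direction, where 2 runs tied for GM and the first was taken. The comparison, the rules and the single-factor lists were chosen with earlier results of these data known. Alternatives for the bounded regions and the distance that joins a run were added after the data were examined.

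In data simulated at these depths, 50 regions were changed at each fold and direction and no others. GM versus MT called 21 of 43 tested regions raised 4-fold in GM and 18 of 46 raised 4-fold in MT. At 2-fold it called 5 of 48 and 2 of 49, with 2 false calls among 18625 regions. In the data 17.4% of regions were called. Fewer changed regions make the adjusted threshold stricter, so these shares do not measure the sensitivity in the data. Reference tables of GRCm38 were the only ones used for a check of coordinates. Regions ran past their last gene on 9 of 21 chromosomes, so neither gene names nor promoter sequences nor motifs were used.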

Additional observations from a re-analysis of the deposited data

Results flagged for a closer look

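The GT and GMT libraries entered no comparison above, and the median share of their counts in both lists of regions stood above the control. The regions higher in MT held a median of 12.1% of the counts of the GMT libraries (9.64% to 13.1%) and 9.31% of those of the GT libraries (3.44% to 9.77%), where the control libraries had at most 4.89%. The lowest GT value was that of the library labelled GT replicate 1, below all control libraries (4.005% to 4.891%) and within the range of G (2.84% to 4.36%). The regions higher in GM held a median of 3.53% of the counts in GMT (3.08% to 3.73%) and 3.52% in GT (3.12% to 6.35%), against at most 3.02% in the control. Here the highest GT value, 6.35%, was again that of the library labelled GT replicate 1, next to 4.42% to 6.75% in G. The cause was not tested.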

How the results depend on the processing

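With 3 libraries per group, leaving out GM, MT, G or T libraries gave 1418 to 3554 regions called in GM versus MT, 252 to 1334 higher in GM and 1166 to 2324 higher in MT, and 4193 to 7475 in G versus T. The lowest values for all 4 came without replicate 3 of all groups. The calls shared by both comparisons ran from 1023 to 3002, calls in opposite directions from 0 to 1 (1 without GM replicate 1), and bounded regions from 2061 to 3290. Without the library labelled GT replicate 1 there were 4197 called, 1368 higher in GM, 2829 higher in MT, 3284 shared and 4272 bounded. A minimum fold of 1.5 gave 2233 called, 552 higher in GM and 1779 shared. At an adjusted p below 0.01 there were 1735 called, 387 higher in GM, 1348 higher in MT, 4456 in G versus T and 1360 shared. The difference between both exchanges had 0 calls under all 26 alternatives, with 805 to 2403 regions at an unadjusted p under 0.05. More of the called regions were higher in MT under each scaling: GM had 31.3% of the calls with TMM, 34.7% with RLE factors, 33.8% with total counts and 38.9% with loess offsets. Scaling moved the median log2 fold change of all regions from 0.03 to at most 0.08. The uncalled region chr15:44259359-44259640 changed sign, to 0.03 without a filter, 0.12 without GM replicate 1 (the highest, against -0.20 without GM replicate 2), 0.03 without GM replicate 3, 0.03 without MT replicate 2 and 0.09 without replicate 1 of all groups. With the replicate number as a block, 3508 regions were called. Whether the numbers pair the samples cannot be settled from so few values. Deviations of same-numbered GM and MT libraries correlated at 0.482, -0.052 and 0.036 for replicates 1 to 3. The best value with another number was 0, 0.298 and 0.07. Of the 38 named regions that were called, 35 kept the call in each of the 6 fits that left out 1 GM or MT library.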

Other observations

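With all 3 factors, the regions that separated the pairs took levels between them more often than not. At the regions higher in MT, the GMT level on the log2 scale lay between GM and MT at 1773 of 2452 (72.3%), above MT at 650 and below GM at 29, and it was nearer to MT at 2030 (82.8%). The median over these regions was 33.1 CPM in GMT, beside 41.2 CPM in MT and 8.84 CPM in GM. At the regions higher in GM, GMT lay between the pairs at 933 of 1118 (83.5%) and was nearer to MT at 542 (48.5%), with a median of 20.6 CPM beside 35.7 CPM in GM and 10.0 CPM in MT. These regions were chosen because GM and MT lie apart, which favours a level between them in any other group. The same shares were not taken for other groups, and no test was made.

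Single regions departed from these medians. At chr6:120124582-120125134, GMT had a mean of 173 CPM, next to 172 CPM in MT, whereas at chr5:107876951-107877176 it had 21.0 CPM, with 77.7 CPM in GM, 190 CPM in G and 23.5 CPM in the control. Within the longest run of regions higher in MT, chr10:76912698-76912942 had 7.12 CPM in GMT against 47.2 CPM in MT, 58.2 CPM in T and 6.56 CPM in GM, while chr10:76946898-76947434 had 117 CPM in GMT and 127 CPM in MT. These regions were picked after their values were seen. In GT, Gata4 and Tbx5 without Mef2c, the median over the regions higher in MT was 20.1 CPM, and 25.3 CPM without the library labelled GT replicate 1. Over the regions higher in GM it was 27.9 CPM, and 19.9 CPM without that library.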
